A study of Homo sapiens with 4 samples.

Results

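The SLC25 genes encode the mitochondrial carriers, and 47 of the 22981 named genes in the deposited data belonged to them. They were chosen by symbol alone, as protein-coding genes whose RefSeq accession maps to a symbol that starts with SLC25A. Expression did not decide which genes belonged, but the family was taken up with earlier results of these data known. Antisense and pseudogene entries with such symbols, 9 in all, were left out, and SLC25A14 was not analysed here. Each gene was represented by its most highly covered transcript, and 29 of the 47 genes had a single transcript in the data.

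The measurements are sequencing reads (tags) of total RNA, depleted of ribosomal RNA, from 2 human prostate cancer cell lines with 2 libraries each. LNCaP is an androgen-dependent line from a lymph node metastasis, and the labels class it as primary cancer. C4-2 is a castration-resistant subline of LNCaP that was obtained through growth in castrated mice. Both were kept in RPMI medium with charcoal-stripped serum, which lacks steroids, and no other treatment separated them. The series title names enhancer RNAs and the transcription elongation factor P-TEFb, and the contrast available here is that between the lines. Each line is one cell population, and the labels do not say whether its libraries came from separate cultures, so that p-values measure only how far these samples spread, and that spread may be technical.

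Each library labelled LNCaP held 58.9 or 70.4 M (mega) sense tags of named genes, in replicates 1 and 2, and each labelled C4-2 held 163.1 or 119.1 M. These tags made up 31.03% to 35.65% of the library total that the deposited RPKM values divide by in the former and 67.65% to 69.42% in the latter. The stored names of the files contradict the sample titles for all 4 libraries. Groups follow the titles, and every direction given here would turn round if the stored names were right. All 7 luminal prostate markers were detected in each library, with a summed level of 1441 and 1479 counts per 1e+06 tags (CPM) in LNCaP and 2409 and 2346 in C4-2. KLK3 (prostate-specific antigen) went against that sum, with 533 and 557 CPM in LNCaP and 6.14 and 6.23 in C4-2. Basal epithelial markers summed to at most 0.203 CPM, and immune and endothelial markers to between 1.46 and 2.12 CPM with CD3E at 0 throughout. Mesenchymal markers summed to 17.0 and 19.6 CPM in LNCaP and 80.2 and 75.2 in C4-2, mostly VIM. COL1A1 went against that sum, with 6.78 and 8.25 CPM in LNCaP and 2.65 and 2.74 in C4-2. COL1A2 had 0 tags in all 4 libraries. The part of these differences in the results below was not tested. In bulk RNA, fewer cells of a type and less RNA per cell cannot be told apart.

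Mitochondrial carriers are membrane proteins that bind a metabolite on one side of the inner mitochondrial membrane and release it on the other. They bring in ADP, phosphate, fuel molecules, cofactors and iron and let out ATP and biosynthetic precursors such as citrate, and a few members sit in other membranes. Prostate epithelium is known for making and secreting citrate, which the citrate carrier moves out of the matrix.

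Of the 47 genes, 44 passed the filter on low counts and were tested, and 39 of these (88.6%) differed between the lines at an adjusted p under 0.05 in the quasi-likelihood test of edgeR. The same call was made for 80.0% of the 15972 genes tested. In C4-2, 23 carriers (52.3%) were higher, where 40.2% of all genes were, and 16 (36.4%) were lower, where 39.7% of all genes were. The median log2 fold change, C4-2 over LNCaP, was 0.28 over the carriers and -0.011 over all genes tested. Changes of at least 2-fold were called upward in 5 carriers (11.4%), beside 11.7% of all genes, and downward in 5 (11.4%), beside 18.1% of all genes. Values in LNCaP and C4-2 did not overlap for 41 of the 44 (93.2%), beside 89.9% of all genes. SLC25A43 passed the filter through the LNCaP libraries alone.

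These directions are relative to the middle of all genes, set by TMM normalization. With the library totals behind the deposited RPKM values as the scale, the median of all genes moved to 0.99 and 86.8% of calls were higher in C4-2, in place of 50.3%. Named-gene tags made up 31.03% to 35.65% of those totals in LNCaP and 67.65% to 69.42% in C4-2, so this scale raises genes in C4-2 together. The carriers then had 36 higher and 4 lower calls, with a median of 1.29, where 72.4% of all genes were called higher and 11.0% lower. Of the 16 carriers lower after TMM normalization, 11 then had a positive value, SLC25A53 remained lower but did not pass, and SLC25A27, SLC25A34, SLC25A35 and SLC25A43 were still called lower. The order of carriers within a library does not depend on this scale. The distance of the carriers' median from that of all genes was 0.30 on either scale, as it must be when a scale moves all genes nearly alike. It was 0.19 after a correction for GC content and transcript length in each library (the GC and length correction). GC content and length were those of the longest transcript of each gene in the GENCODE annotation, which can differ from the transcript counted. As each library was left out in turn, the distance between the medians ranged from 0.29 to 0.42.

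**Figure D1:**
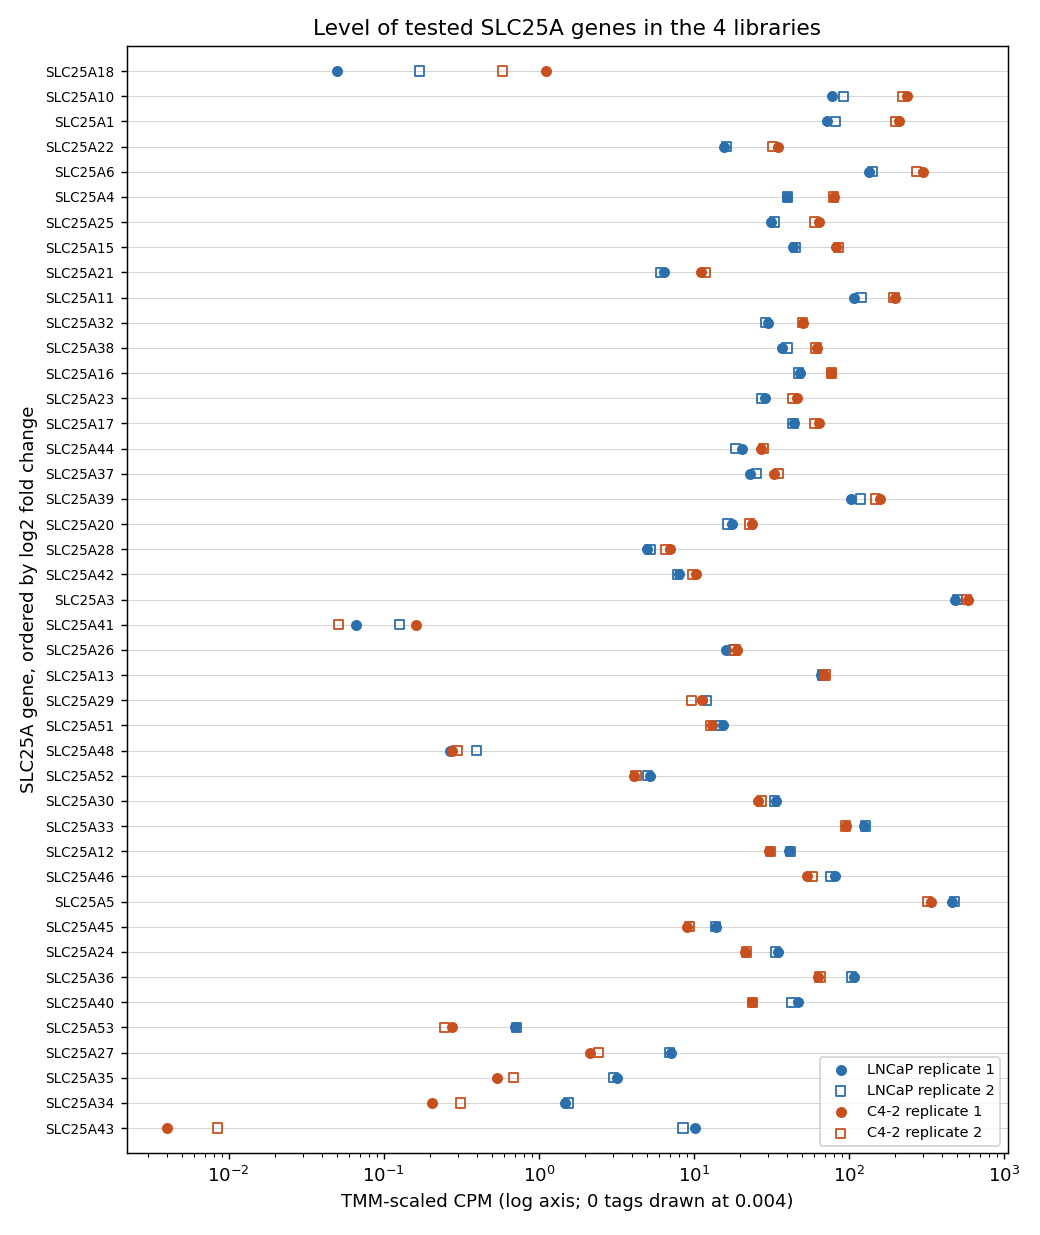
Level of 43 of the 44 tested SLC25A genes in the 4 libraries, as TMM-scaled CPM on a log axis, with genes ordered by log2 fold change; blue marks the libraries labelled LNCaP and orange those labelled C4-2, and filled circles and open squares are replicates 1 and 2. Replicates of a line lie close together except at low counts (SLC25A18, SLC25A41), and SLC25A43 stands at 10.2 and 8.53 CPM in LNCaP against 0 and 0.00848 in C4-2.

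Grouped by what they transport, the carriers differed in how many were higher or lower. Among carriers of di- and tricarboxylates, glutamate and acylcarnitine, 7 of 9 tested were higher in C4-2 and 1 was lower, with a median log2 fold change of 0.88. Carriers of ADP, ATP and phosphate had 5 higher and 2 lower of 8 tested (median 0.45), and those of other amino acids had 3 higher and 0 lower of 4 (median 0.60). Of 14 carriers for cofactors, nucleotides, iron and glutathione, 8 were higher and 5 lower (median 0.38). Both relatives of the uncoupling proteins were lower, although SLC25A30 was higher with library totals as the scale. Of the 7 tested genes that are little studied or not linked to a carried substrate, 6 were lower and 0 higher after TMM normalization (median -1.44), and of these SLC25A45 and SLC25A46 were higher with library totals. After the GC and length correction, the medians were 0.52 for the carboxylate class and 0.15 for carriers of ADP, ATP and phosphate. They were 0.37 for other amino acids and 0.10 for cofactors, nucleotides, iron and glutathione. Those of the uncoupling protein relatives and the little-studied genes were -0.95 and -1.48, beside -0.097 over all genes. Over all genes tested 40.2% were higher and 39.7% lower before that correction, and classes of this size cannot be read closely against those shares. The classes were drawn up with earlier results of these data known and carry no test of their own.

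**Figure D2:**
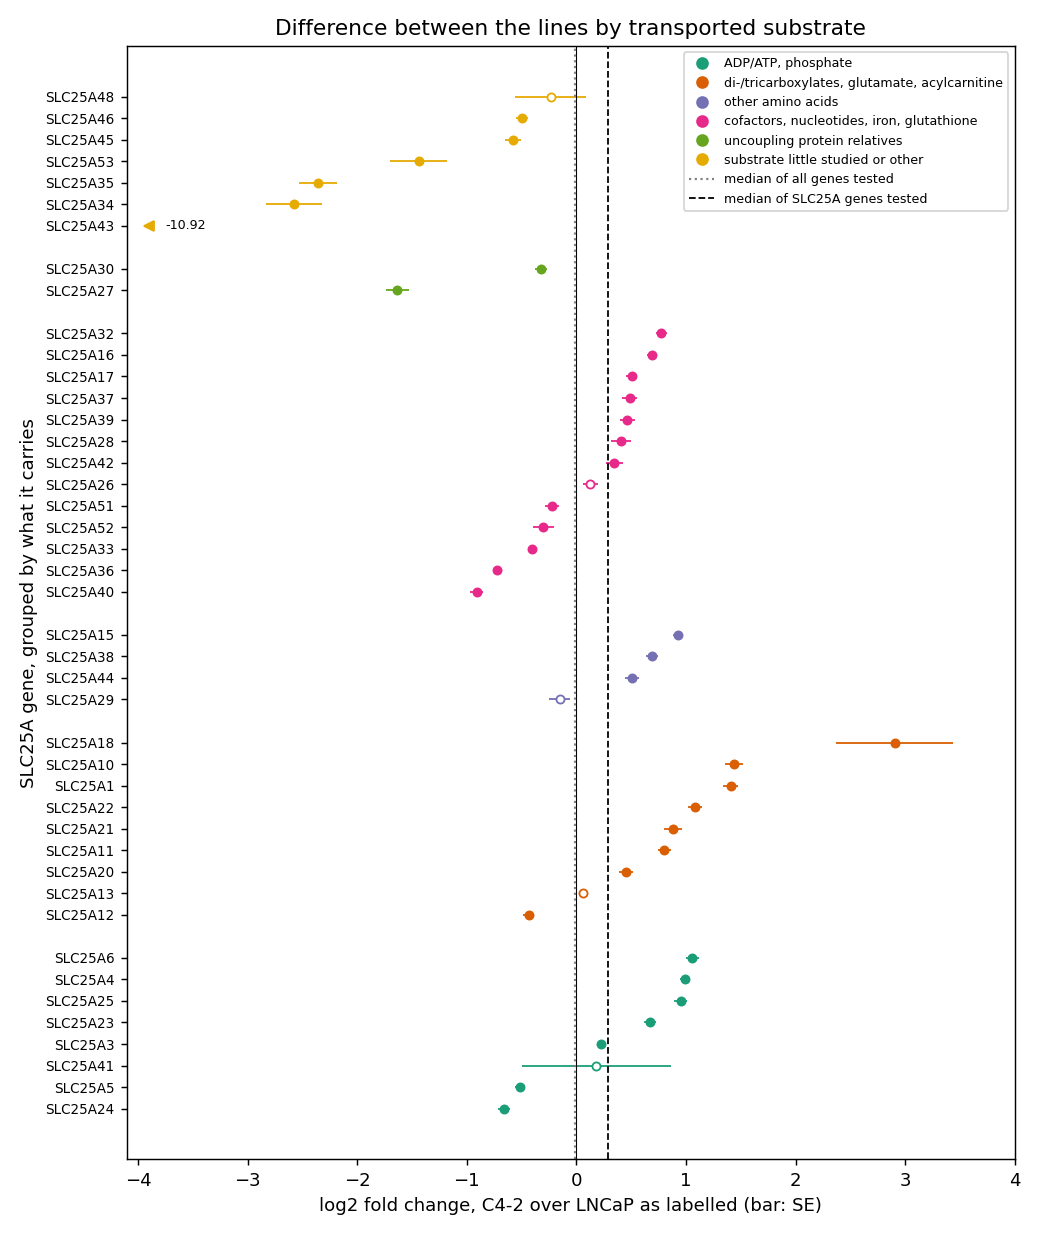
Log2 fold change (C4-2 over LNCaP as labelled, x axis) with its standard error for 43 of the 44 tested SLC25A genes, grouped by what they carry; filled symbols passed an adjusted p of 0.05, the dotted line is the median of all genes tested (-0.011), the dashed line the median of all 44 (0.28), and the arrow marks SLC25A43 at -10.92. The carboxylate carriers lie mostly right of 0 and the little-studied genes left of it on the TMM scale, while 11 of the 16 lower genes turn positive with library totals as the scale. The values shown are before correction for GC content and length.

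The phosphate carrier SLC25A3 and the ADP/ATP carriers supply the ATP synthase with its substrates and export its product, and 3 of these genes, SLC25A3, SLC25A5 and SLC25A6, had the highest RPKM (tags per kb of exon and per 1e+06 tags) of the family in both lines. SLC25A3 (hg19 chromosome 12, 98987403 to 98995778, plus strand) stood at 80.3 and 94.7 RPKM in LNCaP and at 203 and 207 in C4-2. On the CPM scale it had 485 and 506 in LNCaP and 583 and 575 in C4-2 (log2 fold change 0.22 ± 0.037, SE, adjusted p = 6.44e-04). All values in C4-2 lay above those in LNCaP, and the difference was small beside those of other carriers. Of its other 2 transcript rows, the fuller held more tags than the other by 6.63% and 7.14% of its own tags in LNCaP and by 8.94% and 9.09% in C4-2.

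SLC25A5, the ADP/ATP carrier typical of dividing cells, ranked first of the family by RPKM in LNCaP and second in C4-2. It lies on X at 118602363 to 118605359, plus strand. Its level was 462 and 483 CPM in LNCaP and 338 and 323 CPM in C4-2 (log2 fold change -0.52 ± 0.043, adjusted p = 9.98e-06). The C4-2 libraries were both lower on this scale, but with library totals the log2 fold change was 0.49, and the deposited RPKM was 108 and 128 in LNCaP and 167 and 164 in C4-2. The gene has processed pseudogenes, so how the authors' counting placed shared reads bears on its value. Its share of the RPKM summed over all 47 carriers was 26.3% in both LNCaP libraries and 15.1% and 14.9% in C4-2.

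SLC25A6, the ADP/ATP carrier of most tissues, lies in the pseudoautosomal region at X 1505045 to 1511039, minus strand. It had 135 and 142 CPM in LNCaP and 302 and 274 in C4-2, 2.08-fold higher (log2 fold change 1.06 ± 0.058, adjusted p = 8.61e-07). SLC25A4, the form of heart and muscle, at chromosome 4, 186064417 to 186071538, plus strand, had 40.1 CPM in both LNCaP libraries and 80.0 and 79.8 in C4-2 (0.99 ± 0.044, adjusted p = 3.09e-07). For both genes the lines were separated by far more than their replicates differed. The germline form SLC25A31 had 0 tags in all libraries, which with a floor of 3 tags per line allows up to 0.0229 CPM in LNCaP and 0.0108 CPM in C4-2.

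Because RPKM corrects for exon length and shares one total per library, the make-up of ADP/ATP carrier mRNA can be compared within each library whatever the scale. SLC25A5 made up 77.4% of the RPKM of the 3 detected forms in each LNCaP library and 53.0% and 54.1% in C4-2. SLC25A6 made up 20.6% and 20.7% in LNCaP and 43.2% and 41.8% in C4-2, and SLC25A4 2.05% and 1.96% against 3.84% and 4.09%. The ratio of SLC25A6 to SLC25A5 was 0.266 and 0.267 in LNCaP and 0.814 and 0.772 in C4-2, 2.98-fold higher, and that of SLC25A4 to SLC25A5 was 2.85-fold higher. After a correction for GC content and transcript length in each library these changes were 2.04-fold and 2.15-fold. SLC25A5 was the most abundant form in all 4 libraries, and the rarer forms took a larger share in C4-2. With 2 libraries against 2, an exact permutation test of a single ratio cannot reach 0.05, and none was run.

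**Figure D3:**
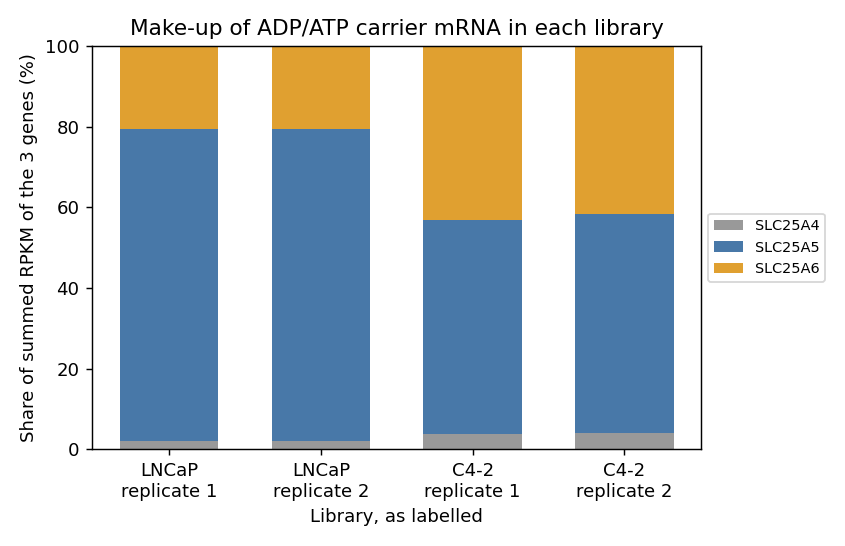
Share of each gene in the RPKM summed over SLC25A4, SLC25A5 and SLC25A6 (y axis, percent) in the 4 libraries (x axis, as labelled). The SLC25A5 share is 77.4% in both LNCaP libraries and 53.0% and 54.1% in C4-2, and the SLC25A6 share 20.6% and 20.7% against 43.2% and 41.8%.

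The ATP-Mg/phosphate carriers, which adjust the adenine nucleotide content of the matrix and respond to calcium in several members, differed in direction among themselves. SLC25A25 and SLC25A23 were higher in C4-2, with log2 fold changes of 0.95 and 0.67, or 0.49 and 0.20 after the GC and length correction. SLC25A24 was lower on the TMM scale (-0.66) and higher with library totals (0.35). Within libraries the RPKM ratio of SLC25A25 to SLC25A24 was 0.939 and 1.03 in LNCaP and 3.11 and 2.89 in C4-2, so that the genes were about level in the former and SLC25A25 was ahead in the latter. The 3.05-fold change of that ratio was 1.98-fold after the GC and length correction. SLC25A41 was at the limit of detection, with 0.0666 and 0.127 CPM in LNCaP and 0.162 and 0.0509 in C4-2. Its lines overlapped and its difference did not pass (adjusted p = 0.812).

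Citrate and dicarboxylate carriers had the largest upward differences among members with at least 10 CPM in both lines, before correction for GC content. SLC25A1, the citrate carrier that exports citrate for lipid synthesis (chromosome 22, 19163088 to 19166338, minus strand), had 72.1 and 82.3 CPM in LNCaP and 210 and 200 in C4-2. It was 2.65-fold higher (log2 fold change 1.41 ± 0.066, adjusted p = 3.88e-07). SLC25A10, which exchanges malate or succinate for phosphate (chromosome 17, 79679266 to 79688046, plus strand), had 77.8 and 92.0 CPM in LNCaP and 238 and 222 in C4-2. That was 2.71-fold higher (1.44 ± 0.079, adjusted p = 8.85e-07). For both, each C4-2 library was above both LNCaP libraries by more than the replicates differed. In rank by RPKM, SLC25A1 went from place 7 in LNCaP to place 4 in C4-2 and SLC25A10 from place 8 to place 5.

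The longest GENCODE transcripts of these genes, used for GC content, are rich in G and C, with 65.6% in SLC25A1 and 65.4% in SLC25A10. The median GC content was 52.1% in the 23 carriers higher in C4-2 and 43.0% in the 16 lower ones. Across genes, the rank correlation of the log2 fold change with GC content was 0.40 over the 44 carriers and 0.18 over 15560 genes, which share the same 4 libraries and are not independent replicates. After the correction for GC content and length, the log2 fold change of SLC25A1 was 0.86 and that of SLC25A10 was 0.87, both still called. Among members with at least 10 CPM in both lines, SLC25A32 was then above them at 0.95. Of members below that level in LNCaP, SLC25A21 was at 1.19 and SLC25A18 at 2.52. Over the 44 carriers that correction left 20 higher and 16 lower calls, where 36.4% of all genes were called higher and 44.4% lower. The carrier median was then 0.089, beside -0.097 over all genes.

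Among the other carboxylate carriers, SLC25A11, which exchanges oxoglutarate for malate in the malate-aspartate shuttle, was higher in C4-2 (0.80). The aspartate/glutamate carriers of the same shuttle were not higher on the TMM scale. SLC25A12 (aralar) was lower on the TMM scale, with -0.43, and higher with library totals, with 0.57. SLC25A13 (citrin) had 65.9 and 67.5 CPM in LNCaP and 69.0 and 70.6 in C4-2, and the difference of 0.06 ± 0.043 did not pass (adjusted p = 0.199), but was 1.07 and passed with library totals. The RPKM ratio of SLC25A13 to SLC25A12 went from 2.01 in both LNCaP libraries to 2.83 and 2.84 in C4-2. That 1.41-fold change was 1.37-fold after the GC and length correction. SLC25A21, which imports oxodicarboxylates from lysine breakdown, and SLC25A20, which brings in acylcarnitines for fatty acid oxidation, were both higher (0.88 and 0.45).

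SLC25A22, a glutamate carrier (chromosome 11, 790475 to 797995, minus strand), had 15.6 and 16.2 CPM in LNCaP and 34.9 and 32.4 in C4-2 (1.08 ± 0.063, adjusted p = 1.16e-06). Both C4-2 libraries were above both LNCaP libraries, and after the GC and length correction the log2 fold change was 0.52. Its relative SLC25A18 was rare, with 3 and 12 tags in LNCaP and 179 and 69 in C4-2, or 0.0499, 0.170, 1.11 and 0.585 CPM. The lines did not overlap, but replicates differed widely in both lines. The log2 fold change was 2.91 ± 0.53 (adjusted p = 1.19e-03), and leaving out LNCaP replicate 2 gave 4.08, while leaving out LNCaP replicate 1 gave 2.35. SLC25A18 also had 37 and 34 tags on the opposite strand in LNCaP, more than on its own strand.

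Most other amino acid carriers were higher. The ornithine carrier SLC25A15 of the urea cycle was higher in C4-2 (0.93), as were the glycine carrier SLC25A38, which serves heme synthesis (0.69), and the branched-chain amino acid carrier SLC25A44 (0.50). After the GC and length correction these values were 0.71, 0.55 and 0.20. SLC25A29, a carrier of basic amino acids, had 11.2 and 12.0 CPM in LNCaP and 11.3 and 9.64 in C4-2. Its lines overlapped and the log2 fold change of -0.15 ± 0.094 did not pass (adjusted p = 0.165). It passed as lower after the GC and length correction (-0.62), with the stricter filter (-0.24) and without LNCaP replicate 1 (-0.19), and as higher with library totals (0.85). The other ornithine carrier, SLC25A2, was not tested, with 4 tags over the LNCaP and 13 over the C4-2 libraries.

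Carriers of cofactors and nucleotides were divided. Higher in C4-2 were SLC25A32 (0.78), linked to folate and FAD, SLC25A16 (0.69) and SLC25A42 (0.34), linked to coenzyme A, and the peroxisomal cofactor carrier SLC25A17 (0.50). SLC25A42 lost its direction after the GC and length correction (-0.14, not called). The S-adenosylmethionine carrier SLC25A26 had 16.2 and 18.1 CPM in LNCaP and 19.0 and 18.5 in C4-2, and its log2 fold change of 0.13 ± 0.070 did not pass (adjusted p = 0.128). It passed with library totals (1.13), without a low-count filter (0.17), with both strands counted (0.20) and without LNCaP replicate 2 (0.21). Both iron importers, SLC25A37 (mitoferrin 1) and SLC25A28 (mitoferrin 2), were higher (0.49 and 0.41). After the GC and length correction SLC25A37 was at 0.19 and still called, and the SLC25A28 call was lost.

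The pyrimidine nucleotide carriers SLC25A33 and SLC25A36 were both lower in C4-2 on the TMM scale (-0.41 and -0.72) and higher with library totals (0.60 and 0.29). SLC25A33 was at place 4 of the family by RPKM in LNCaP and at place 8 in C4-2. The glutathione carriers moved apart, with SLC25A39 higher (0.47) and SLC25A40 lower (-0.91) on the TMM scale, while SLC25A40 was at 0.099 with library totals. Their RPKM ratio was 4.31 and 5.39 in LNCaP and 12.9 and 12.2 in C4-2, 2.59-fold higher, or 1.45-fold after the GC and length correction. SLC25A39 alone then did not pass (0.055). The NAD carrier SLC25A51 and its near copy SLC25A52 had log2 fold changes of -0.22 and -0.30. Reads of these near copies may be split between them, both values turned positive with library totals, and both calls were lost when either C4-2 library was left out.

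Of the relatives of the uncoupling proteins, SLC25A27, found mainly in the nervous system, had 7.18 and 6.95 CPM in LNCaP and 2.15 and 2.42 in C4-2. The lines were well apart, at -1.63 ± 0.11 (log2 fold change, adjusted p = 2.60e-06), and it was lower on every scale tried. SLC25A30 was lower by less on the TMM scale (-0.32) and higher with library totals (0.69).

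The little-studied carriers held 4 of the 5 lowest log2 fold changes of the family, and SLC25A27 the other. SLC25A34 had 1.48 and 1.55 CPM in LNCaP and 0.205 and 0.314 in C4-2 (-2.57 ± 0.26, adjusted p = 2.81e-05). SLC25A35 had 3.20 and 3.05 CPM in LNCaP and 0.542 and 0.687 in C4-2 (-2.36 ± 0.17, adjusted p = 4.82e-06). Neither overlapped between the lines. SLC25A35 overlaps RANGRF on the other strand, and its opposite strand held 387 and 457 tags in LNCaP and 387 and 290 in C4-2, more than the 192, 216, 87 and 81 tags on its own strand. SLC25A53 had 0.699 and 0.721 CPM in LNCaP and 0.274 and 0.246 in C4-2 (-1.44 ± 0.26, adjusted p = 1.02e-03), and shares its strand with the overlapping LOC286437, so that its value is uncertain.

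SLC25A45 (-0.58) and SLC25A46 (-0.49), an outer membrane protein of mitochondrial dynamics, were lower on the TMM scale and higher with library totals (0.43 and 0.51). SLC25A48 was rare, with 0.266 and 0.396 CPM in LNCaP and 0.274 and 0.297 in C4-2, and did not pass (adjusted p = 0.526). The lines overlapped. SLC25A47, a carrier of liver, had 6 tags over the LNCaP and 7 over the C4-2 libraries and was not tested.

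SLC25A43, whose substrate is little studied, was close to absent from one line. Its 611 and 604 tags in LNCaP, or 10.2 and 8.53 CPM, stood against 0 and 1 tags in C4-2, although the C4-2 libraries held more tags in all. The log2 fold change was -10.92 (adjusted p = 5.32e-08), and its size depends on how so few tags are handled. The SE of 0.33, derived from the test statistic, is far narrower than the interval and range that follow and understates the uncertainty. The tags pooled over each line, 1215 against 1, gave a ratio of 2587 after scaling for depth, with an exact 95% interval from 463 to 102265 that covers counting error only. It ranged in log2 from -12.82 to -9.86 as each library was left out in turn. SLC25A43 passed the low-count filter through LNCaP alone, the line where it was high. Its direction was the same in every setting tried, but these settings reuse the same libraries and are not separate support.

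SLC25A43 lies on X at 118533258 to 118588437, plus strand, and the next carrier, SLC25A5, begins 13.9 kb beyond its end on the same strand. The pair thus sets a carrier nearly lost in C4-2 beside one of the most abundant carriers in both lines. The 250 bases before each annotated start (GRCh37) are shown to let them be compared, with CG pairs in capitals, since CG-rich starts are typical of widely expressed genes.
SLC25A43, chrX:118533008-118533257, plus strand: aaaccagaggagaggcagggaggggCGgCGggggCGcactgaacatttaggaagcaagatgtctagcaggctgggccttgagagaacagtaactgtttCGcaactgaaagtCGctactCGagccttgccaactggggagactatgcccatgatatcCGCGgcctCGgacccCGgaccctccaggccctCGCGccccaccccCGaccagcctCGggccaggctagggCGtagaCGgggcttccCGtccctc
SLC25A5, chrX:118602113-118602362, plus strand: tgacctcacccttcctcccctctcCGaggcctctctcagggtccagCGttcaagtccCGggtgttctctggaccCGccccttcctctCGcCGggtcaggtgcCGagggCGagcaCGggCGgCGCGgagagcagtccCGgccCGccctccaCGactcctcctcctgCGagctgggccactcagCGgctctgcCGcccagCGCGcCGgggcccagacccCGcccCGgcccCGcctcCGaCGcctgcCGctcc
The SLC25A43 stretch held 17 CG pairs and 64.0% G and C, and the SLC25A5 stretch 27 CG pairs and 75.2%. The RefSeq start lies 41 bases downstream of the start used in the files for SLC25A43 and 44 bases downstream for SLC25A5. The 300 bases around that RefSeq start held 27 CG pairs for SLC25A43 and 36 for SLC25A5. These are reference sequences, and the sequence of the cell lines themselves was not examined.

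The loss at SLC25A43 did not extend evenly over its neighbours within 400 kb. LONRF3, which ends 381 kb upstream, had 6.41 and 5.31 CPM in LNCaP and 0.0311 and 0.0848 in C4-2 (log2 fold change -6.73), and it passed the low-count filter through LNCaP alone. PGRMC1, a heme-binding protein gene between LONRF3 and SLC25A43, was higher in C4-2, with 107 and 103 CPM against 138 and 143 (0.42). Beyond SLC25A43, SLC25A5-AS1, which lies on the opposite strand and overlaps SLC25A5, had 8.97 and 8.41 CPM in LNCaP and 4.27 and 4.19 in C4-2 (-1.04), a call lost with library totals (-0.031). Next to these, UBE2A was lower by 0.36 on the TMM scale (log2 fold change -0.36) and higher with library totals (0.65), STEEP1 did not pass, and SEPTIN6 was higher, with 12.8 and 12.6 CPM against 33.4 and 31.6 (1.36). LONRF3 and SLC25A43 were the genes of the stretch at under 0.1 CPM in both C4-2 libraries with more than 1 CPM in LNCaP. Of the other tested genes in the stretch, KIAA1210 (-0.97) and RPL39 (-0.93) were lower on the TMM scale but at 0.026 and 0.074, not called, with library totals, and SOWAHD, SNORA69 and UPF3B did not pass on the TMM scale. The genes given with CPM values here were picked after all values were seen.

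**Figure D4:**
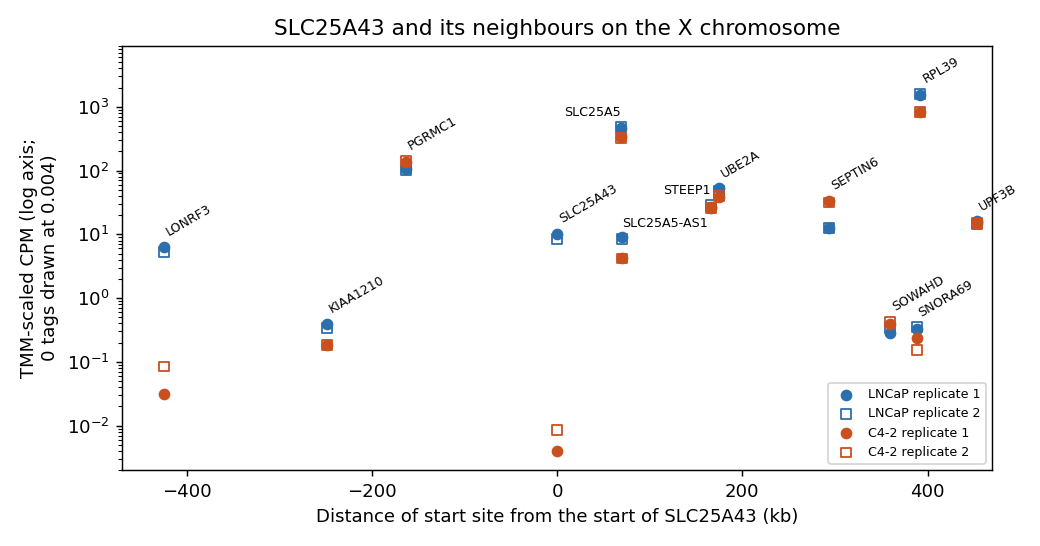
TMM-scaled CPM (log axis, 0 tags drawn at 0.004) of SLC25A43 and genes within 400 kb of it in the 4 libraries, against the distance of each start site from that of SLC25A43 in kb. SLC25A43 and LONRF3 fall below 0.1 CPM in C4-2, while PGRMC1 between them stands at 138 and 143 CPM.

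What the carriers share in sequence was examined in RefSeq promoters (GRCh38.p14, 300 bases around the start), which were matched by symbol for 39 of the 47 genes. Their median number of CG pairs was 27, with a range from 3 to 48, beside a median of 22 over 15842 promoters of protein-coding genes. The palindromic consensus of NRF1, a regulator of nuclear genes for mitochondria, searched like the other motifs on both strands, was in 0 of 39 carrier promoters and in 1.75% of all promoters. The ETS-family core CCGGAAGT was in 3 carrier promoters (7.69%), those of SLC25A17, SLC25A24 and SLC25A46, and in 6.19% of all. The E-box CACGTG was in 7 (17.9%), those of SLC25A13, SLC25A31, SLC25A33, SLC25A36, SLC25A38, SLC25A46 and SLC25A51, and in 8.88% of all. No motif contains another. Such matches are letters only and were not set against binding. Of the carriers with an E-box, SLC25A38 was higher and SLC25A33, SLC25A36, SLC25A46 and SLC25A51 were lower on the TMM scale. Those lower genes turned positive with library totals. SLC25A13 did not pass on the TMM scale and SLC25A31 was undetected.

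Genes that work with the carriers were read from the same fit, in which 80.0% of all genes were called, 40.2% as higher and 39.7% as lower. Carriers reach the inner membrane through TOM and TIM import complexes, and of 13 such genes 7 (53.8%) were higher and 4 (30.8%) lower in C4-2, with a median log2 fold change of 0.16. TOMM40, the pore of the outer membrane, had 33.8 and 38.5 CPM in LNCaP and 102 and 99.1 in C4-2 (1.47). The chaperones TIMM9 and TIMM10, which guide carriers across the space between the membranes, were lower on the TMM scale (-0.76 and -0.94) and were positive with library totals (0.25 and 0.063). For the outer membrane pores that carrier substrates cross, VDAC1 (0.45) and VDAC2 (0.37) were higher and VDAC3 (-0.43) was lower on the TMM scale, with 0.57 by library totals.

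Of 18 transporters and related proteins of the inner membrane outside the family, 6 (33.3%) were higher and 7 (38.9%) lower, with a median of -0.082. That was no more than over all genes. The sideroflexin SFXN5 had 9.01 and 9.40 CPM in LNCaP and 32.1 and 29.5 in C4-2 (1.74). MCUB, a partner of the calcium uniporter, had 5.93 and 5.88 CPM in LNCaP and 0.342 and 0.322 in C4-2 (-4.14). NNT, the transhydrogenase that makes NADPH in the matrix, had 42.6 and 46.7 CPM in LNCaP and 0.0498 and 0.0763 in C4-2 (-9.49). Like SLC25A43, NNT passed the low-count filter through the LNCaP libraries alone.

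Of 5 proteins with the carrier fold but other symbols, 3 were tested. UCP3 was lower (-1.49), a call lost with library totals (-0.50), and MTCH1 (0.56) and MTCH2 (0.11) were higher, with the MTCH2 call lost with the replicate number as a block. UCP1 had 0 tags in all libraries, and UCP2 was not tested, with 1 tag in each of 2 libraries. Among 30 enzymes that make or use carried substrates, 17 (56.7%) were higher and 5 (16.7%) lower, with a median of 0.27, and 73.3% were called in all. The aspartate aminotransferase of the matrix, GOT2, had 96.4 and 100.1 CPM in LNCaP and 300.05 and 284 in C4-2 (1.57). Enzymes of ornithine differed in opposite directions: ARG2, which makes it, had 72.9 and 71.1 CPM in LNCaP and 223 and 220 in C4-2 (1.62), and OAT, which uses it, had 32.8 and 34.2 against 9.75 and 10.4 (-1.73).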

How the data were processed

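Per the submitters' processing notes, TopHat2 2.0.6 with Bowtie aligned the reads, and the build was hg19 (GRCh37). Each of 41351 transcript rows carries, as deposited by the authors, a count of tags and an RPKM per strand, and the tool that counted is not given in the sources used here. RPKM totals of 171.51 to 241.07 M tags were recovered from rows of single-exon transcripts. The kit is not stated to keep the strand, but 1.18% to 1.80% of tags lay opposite to the gene, so the sense count was used. RefSeq names (GRCh38.p14) were found for 38970 of 40304 accessions. Unnamed rows, 2.07% to 2.16% of tags, stayed out.

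Counts of the top transcript of each symbol were tested with edgeR 4.0.16 (quasi-likelihood, filterByExpr, TMM, R 4.3.3), line as the only term, with Benjamini-Hochberg adjustment over all 15972 genes at 0.05. Each SE was the size of the log2 fold change divided by the square root of its F statistic. The biological coefficient of variation was 6.43%. Sampling noise did not cover the difference between replicates (chi-square over its degrees of freedom 25.6 in LNCaP, 12.7 in C4-2). The 13 alternatives included DESeq2 1.42.0, other scales, filters, strands and transcripts, a replicate block, each library left out, and a GC and length correction added after seeing the data. That correction used the longest GENCODE transcript of each gene, which can differ from the one counted. For SLC25A3 it had 6087 bases, beside 1912 bases of exon in the counted transcript. Floors use 3 tags per line, and intervals are at 95%.

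Members and lists were chosen with earlier results of these data known. Values per library are given for members changed at least 2-fold, the 3 highest by RPKM, those that did not pass and the ADP/ATP carriers, and up to 3 members of each other list by smallest adjusted p are named. The values of 1 tested member are not reported here, but it is included in the counts and medians.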

Additional observations from a re-analysis of the deposited data

Results flagged for a closer look

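Tags on the strand opposite to a carrier, which the comparisons did not use, stood out in 3 genes. SLC25A35 had 387 and 457 such tags in LNCaP replicates 1 and 2 and 387 and 290 in C4-2 replicates 1 and 2. SLC25A18 had 37 and 34 in LNCaP, and SLC25A41 had 7 and 11. In each of these libraries the opposite strand held more tags than a count of 0 allows and more than the gene's own strand. Only SLC25A35 has an annotated gene on the other strand in the data, RANGRF, and the part of unannotated transcripts was not tested.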

How the results depend on the processing

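Scaling to library totals gave 36 higher and 4 lower carriers, with a median of 1.29. On that scale 72.4% of all genes were called higher and 11.0% lower. The same scaling moved the lists to 12 higher and 0 lower (import), 15 and 2 (other transporters), 28 and 1 (enzymes), and 0 lower among fold relatives and porins. It reversed SLC25A5 (0.49), SLC25A24 (0.35), SLC25A12 (0.57), SLC25A29 (0.85), SLC25A33 (0.60), SLC25A36 (0.29), SLC25A40 (0.099), SLC25A51 (0.79), SLC25A52 (0.71), SLC25A30 (0.69), SLC25A45 (0.43), SLC25A46 (0.51), SLC25A48 (0.76), TIMM10 (0.063), TIMM9 (0.25), VDAC3 (0.57), STEEP1 (0.94) and UBE2A (0.65). The GC and length correction gave a carrier median of 0.089 and 8 lower enzymes of 30, where 44.4% of all genes were called lower. It reversed SLC25A41 (-0.16), SLC25A13 (-0.006), SLC25A42 (-0.14), SLC25A52 (0.088) and UBE2A (0.19). Counting both strands put SLC25A41 at -0.51. The stricter filter put SLC25A13 at -0.018 and left 1 higher and 0 lower fold relatives. As libraries were left out, the carrier median ranged from 0.28 to 0.41, higher fold relatives from 1 to 2, SLC25A41 from -0.18 to 0.74, SLC25A48 from -0.47 to 0.096 and STEEP1 from -0.12 to 0.0086. The shifts with library totals follow from the different share of named-gene tags in those totals, and why that share differed was not tested. The cause of the other changes was not tested. The replicate numbers did not pair the samples (correlation of deviations -0.031), and with the replicate block the carriers had 23 higher and 16 lower calls, the genes 6254 and 6131, and the fold relatives 1 higher. SLC25A52 also failed to pass with DESeq2. Depth limits SLC25A2, SLC25A31, SLC25A41 and SLC25A47, and a tag in SLC25A43 sets its fold.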
